A study of Mus musculus with 16 samples.

Results

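Carboxylesterases are serine hydrolases, most of them held in the endoplasmic reticulum, that cleave esters and amides in drugs, environmental chemicals and stored lipids. The mouse Ces1 and Ces2 genes lie in 2 tandem clusters on chromosome 8, and transcription of several of them is known to respond to the oxidant-sensing factor NRF2 and to the xenobiotic receptors PXR and CAR. Members were found by searching gene names and descriptions of every non-control probe for carboxylesterase 1 and 2 genes, older names included, and resolving them to current symbols. This gave 12 genes on 18 probes among 27703 gene names on the array. They are 6 Ces1 genes (Ces1c, Ces1d, Ces1e, Ces1f, Ces1g and Ces1h) and 6 Ces2 genes (Ces2a, Ces2b, Ces2c, Ces2e, Ces2f and Ces2g), of which Ces1g, Ces1f, Ces1d, Ces1e, Ces2e and Ces2g had been listed by symbol. All 12 genes passed the filter on low signal and were tested, on 16 of the 18 probes. None of their spots was saturated or flagged. Ces1h, Ces2a and Ces2f passed the filter only through the selenocystine groups, so no count over these 12 genes is a measure of how many respond.

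The RNA came from lungs of 16 female A/J mice, 4 per group, on an AIN-76 diet with 0.35 ppm selenium. Untreated mice received nothing else. NNK mice had 1 intraperitoneal injection of NNK, a nitrosamine from tobacco (10 uM in 0.2 mL saline), and were killed after 13 days, SECY mice ate 15 ppm selenocystine, a selenium amino acid, for 10 days, and NNK+SECY mice had the injection and, from 3 days later, the same 10 days of selenocystine. No injection is named for the Untreated and SECY mice and no ages are given. Within a group, the 4 mice are described as biological replicates. Each lung was labelled with Cy5 and hybridised against 1 shared reference in Cy3, an equal mix of the 4 untreated RNAs, with no dye swap. Values are log2(Cy5/Cy3), so 0 is the level of that pool, and differences between groups are log2 fold changes with the model's standard error (SE). All 8 club cell, 10 alveolar type 2 and 8 alveolar type 1 markers were well above background on all 16 arrays, which matches the labelled tissue. In whole lung, fewer cells of a type and less RNA per cell cannot be told apart.

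The file headers hold 8 slide barcodes, each on 2 arrays. Barcodes 1 to 4, called slides 1 to 4 here, are each on 1 Untreated and 1 NNK array, and barcodes 5 to 8 on 1 SECY and 1 NNK+SECY array. Each file describes a grid of 1 block, and how 2 arrays scanned on different days came to carry 1 barcode is not stated in the headers or labels, so the slide is only what the barcode says. Over all probes, the authors' log ratios of the 8 pairs with a shared barcode correlated at 0.11 to 0.42, with a median of 0.33. The other 112 pairs ranged from -0.21 to 0.54, with a lower median of 0.20. Arrays with a shared barcode were treated as separate, and the main model had no term for the barcode. Scan day 1 held the NNK and NNK+SECY arrays, and scan day 2 the Untreated and SECY arrays. SECY over Untreated and NNK+SECY over NNK therefore lie within a scan day, but diet and slide set cannot be told apart. NNK+SECY over Untreated, counted below among the 3 diet comparisons, differs in diet, NNK, scan day and slide set at once. The NNK comparisons lie within barcodes, but NNK and scan day cannot be told apart. Untreated 1 and SECY 3 correlated at r = -0.34 over all probes, although the labels put the lung sample in Cy5 on both, and the stated direction was kept. On 5 arrays (Untreated 3, NNK 3, SECY 4, NNK+SECY 2 and NNK+SECY 3) the liver transcript Alb was above the pool, and results are given with and without them where they are touched. Without them, the NNK+SECY group holds only NNK+SECY 1 and NNK+SECY 4, so its values there rest on very few lungs.

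The 250 bases before the start site show the upstream regions of 3 members whose array patterns differ: Ces1g, which rose with selenocystine, Ces1c, which followed liver transcripts, and Ces2e, which was high in 1 lung. They are RefSeq sequences of the GRCm38.p6 reference, not of the A/J strain, written 5′ to 3′ on the gene's strand. Capitals mark CCAAT or TATAAA on either strand (the reverse complement of CCAAT is ATTGG and that of TATAAA is TTTATA). The windows are chr8:93337210-93337459 on the minus strand for Ces1g, chr8:93131284-93131533 on the minus strand for Ces1c and chr8:104926010-104926259 on the plus strand for Ces2e.
Ces1g: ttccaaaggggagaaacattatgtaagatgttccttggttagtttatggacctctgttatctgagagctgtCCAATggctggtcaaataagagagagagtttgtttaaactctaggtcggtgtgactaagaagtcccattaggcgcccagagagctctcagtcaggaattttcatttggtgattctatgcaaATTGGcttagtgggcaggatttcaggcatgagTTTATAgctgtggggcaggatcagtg
Ces1c: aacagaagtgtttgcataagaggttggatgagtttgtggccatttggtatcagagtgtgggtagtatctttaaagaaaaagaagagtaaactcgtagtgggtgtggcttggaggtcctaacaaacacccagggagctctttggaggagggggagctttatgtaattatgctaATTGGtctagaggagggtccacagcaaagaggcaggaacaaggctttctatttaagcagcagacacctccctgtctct
Ces2e: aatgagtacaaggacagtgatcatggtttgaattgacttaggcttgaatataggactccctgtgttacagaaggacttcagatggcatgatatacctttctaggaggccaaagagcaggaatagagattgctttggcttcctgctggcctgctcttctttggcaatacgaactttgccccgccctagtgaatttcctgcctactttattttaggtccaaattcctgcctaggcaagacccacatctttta

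The Ces1g window held 2 CCAAT matches, starting 179 bases before the start site on the plus strand and 58 bases before it on the minus strand, and 1 TATAAA match 26 bases before it on the minus strand. The Ces1c window held 1 CCAAT match and the Ces2e window held no match to either motif. Over 32807 windows of the same length, 33.8% held CCAAT and 12.4% held TATAAA on either strand. The core of the antioxidant response element, TGACNNNGC on either strand, was in none of the 9 windows available for these genes (Ces1c, Ces1e, Ces1g, Ces1h, Ces2a, Ces2c, Ces2e, Ces2f and Ces2g) and in 10.2% of all windows. No match says only that these letters are not in these 250 bases.

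Ces1g, the gene called Ces1 on the array and an enzyme of hepatic lipid metabolism, lies at chr8:93302369-93337209. In Untreated lungs its log2 ratios were -0.04, -0.02, 0.03 and 0.01, and in NNK lungs they were 0.10, -0.09, 0.03 and 0.18. In SECY lungs they were 1.41, 1.40, 1.63 and 1.47, and in NNK+SECY lungs 1.28, 1.55, 1.29 and 1.07. All 8 lungs from mice fed selenocystine lay above all 8 lungs from mice that were not, and the NNK arrays overlapped the Untreated ones. Ces1g rose by 1.48 ± 0.08 (SE, n = 4 per group) in SECY over Untreated, a 2.79-fold difference (limma, adjusted p = 6.80e-08). It rose by 1.24 ± 0.08, or 2.36-fold, in NNK+SECY over NNK (adjusted p = 1.56e-06). These 2 comparisons have no array in common. They do share the Cy3 pool, the model's estimate of the spread and the contrast of slides 5 to 8 with slides 1 to 4. In both, Ces1g had the smallest p of all genes tested. Against Untreated, which the first comparison also uses, NNK+SECY was higher by 1.30 ± 0.08 (adjusted p = 7.87e-07).

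A further probe for Ces1g gave a similar picture. Its SECY arrays lay between 1.32 and 1.43 and its NNK+SECY arrays between 0.98 and 1.48, against -0.28 to 0.06 over the Untreated and NNK arrays. Tested among 30743 probes, it rose by 1.37 ± 0.09 in SECY over Untreated (adjusted p = 3.38e-07) and by 1.28 ± 0.09 in NNK+SECY over NNK (adjusted p = 1.41e-06). The values of the 2 probes correlated at r = 0.995 over the 16 arrays, which share each array's labelling and slide. Both probes are assigned to the same transcript, and Ces1 genes are close relatives whose cross-hybridisation was not tested.

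**Figure D1:**
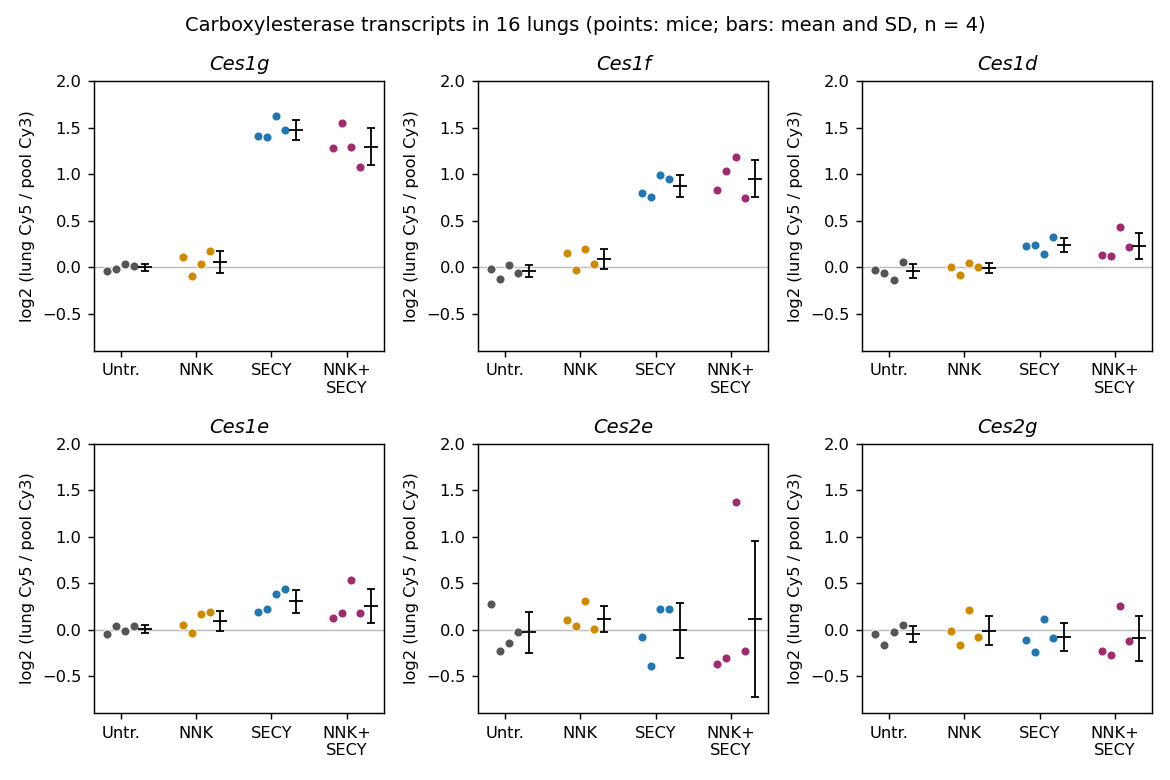
Log2 ratio of lung (Cy5) to the untreated pool (Cy3) for 6 carboxylesterase genes in each of 16 mice, by group, with mean and SD (n = 4). Ces1g and Ces1f separate the SECY and NNK+SECY lungs from the others, Ces1d and Ces1e lie slightly higher there, and Ces2e has 1 lung, NNK+SECY 3, at 1.37.

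The dyes were also read on their own, after scaling arrays to a common brightness. The Cy5 signal of Ces1g was 124 to 142 in Untreated and 120 to 146 in NNK lungs. It was 463 to 610 in SECY and 324 to 499 in NNK+SECY lungs, without overlap. The Cy3 signal, which comes from the same pool on every array, was 123 to 146 on Untreated, 124 to 135 on NNK, 175 to 198 on SECY and 144 to 171 on NNK+SECY arrays. The log2 change in SECY over Untreated was thus 1.94 in Cy5 and 0.46 in Cy3, and the ratio gives the Cy5 change minus the Cy3 change. In NNK+SECY over NNK it was 1.54 in Cy5 and 0.30 in Cy3. The Ces1g rise was larger in Cy5 alone than in the ratio, and the source of the Cy3 difference was not tested.

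**Figure D2:**
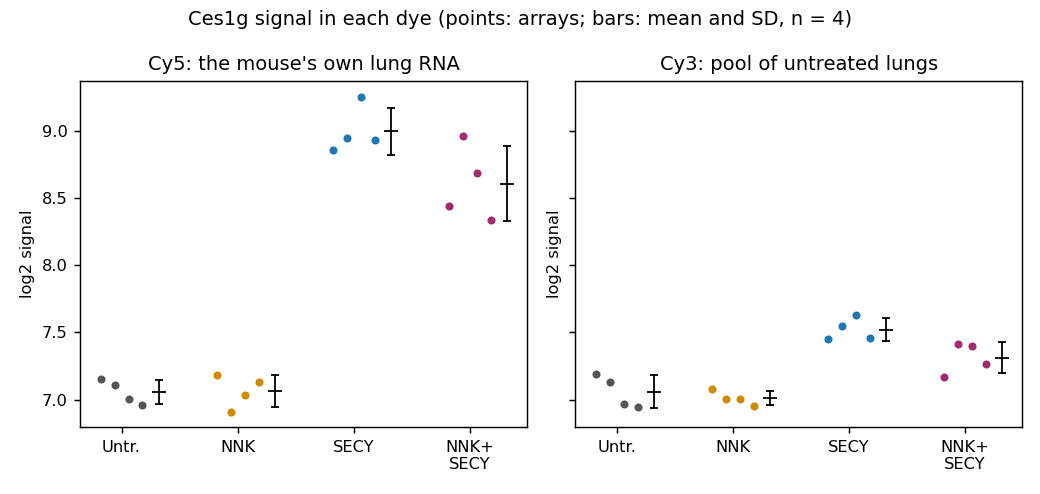
Ces1g log2 signal in Cy5 (the mouse's own lung RNA) and Cy3 (the shared pool of untreated lungs) on each of 16 arrays, with mean and SD (n = 4). Cy5 is higher in every selenocystine lung, and the Cy3 signal of the same pool is also higher on SECY arrays (175 to 198) than on Untreated arrays (123 to 146) on the linear scale.

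Ces1f, a liver-type hydrolase related to triacylglycerol hydrolase (AU018778 on the array, chr8:93256236-93279766), was the other member called. Its log2 ratios were -0.02, -0.13, 0.03 and -0.07 in Untreated and 0.15, -0.03, 0.19 and 0.03 in NNK lungs. They were 0.80, 0.75, 0.99 and 0.95 in SECY and 0.83, 1.03, 1.18 and 0.74 in NNK+SECY lungs. As with Ces1g, no selenocystine lung overlapped a lung without selenocystine. Ces1f rose by 0.92 ± 0.09 in SECY over Untreated, or 1.89-fold (adjusted p = 2.60e-05), and by 0.86 ± 0.09 in NNK+SECY over NNK, or 1.82-fold (adjusted p = 6.68e-05). Over Untreated, NNK+SECY was higher by 0.99 ± 0.09 (adjusted p = 1.34e-05). In Ces1f the dyes were not both shifted: Cy5 changed by 0.93 and Cy3 by 0.01 (log2) in SECY over Untreated.

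Across the family, 2 of 12 genes (Ces1g and Ces1f) were called higher and 0 lower in each of the 3 diet comparisons. Among all genes tested in SECY over Untreated, 0.278% were called, 0.212% higher and 0.0659% lower. In NNK+SECY over NNK 1.75% were called, 0.306% higher and 1.44% lower, and in NNK+SECY over Untreated 1.6% were called, 0.537% higher and 1.06% lower. The median log2 fold change of the 12 genes was 0.13, 0.10 and 0.17 in these comparisons, and that of all genes -0.0034, -0.0021 and 0.00037. The 6 Ces1 genes all had positive estimates in each of the 3, with medians of 0.45, 0.55 and 0.63, while the 6 Ces2 genes had medians of -0.03, -0.02 and -0.05. The Ces1 values include Ces1h, which passed the filter only through the selenocystine groups, where it was high. They also include Ces1c, which followed liver transcripts, so the sign count and medians are descriptions and not support for a rise of all Ces1 genes. Without the 5 arrays high in liver transcripts the Ces1 medians were 0.29, 0.26 and 0.24, over 1.5 times lower, and 6, 5 and 6 of the 6 estimates were positive, since Ces1c was at -0.07 in NNK+SECY over NNK. The Ces2 medians were then -0.07, -0.09 and -0.13. Ces1g and Ces1f kept their call under every alternative run. Without the same 5 arrays, Ces1g was at 1.49 ± 0.09 in SECY over Untreated and 1.11 ± 0.10 in NNK+SECY over NNK, and Ces1f at 0.92 ± 0.08 and 0.74 ± 0.09 (largest adjusted p = 0.00554).

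**Figure D3:**
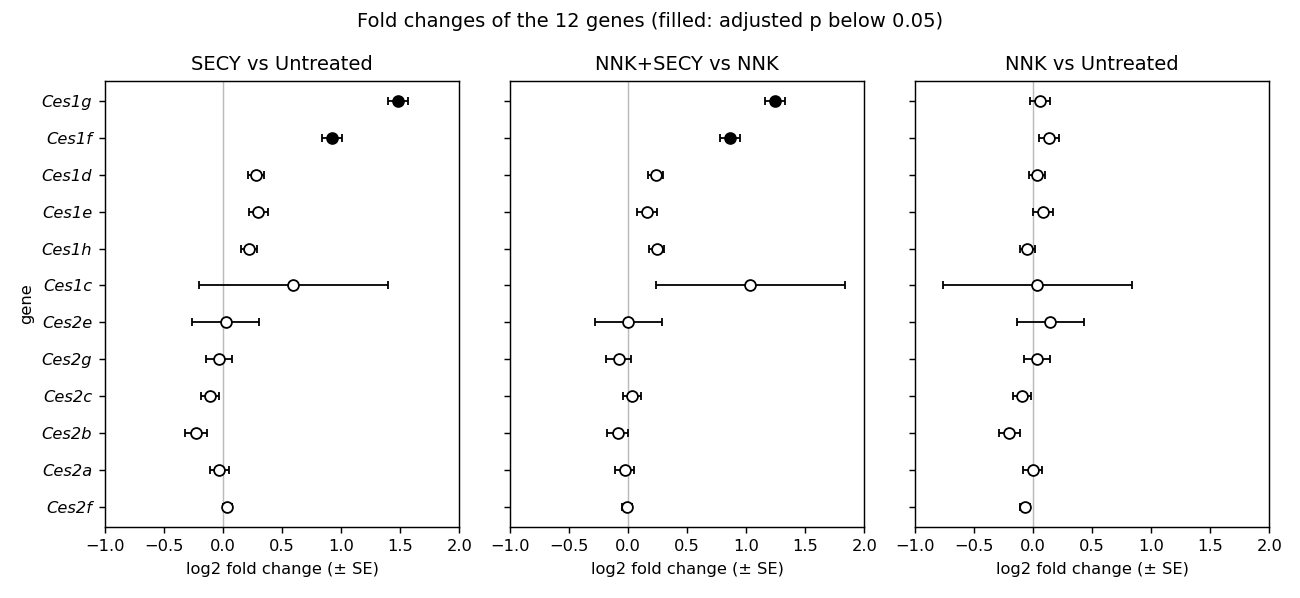
Log2 fold change with its SE (n = 4 per group) for 12 Ces1 and Ces2 genes in SECY over Untreated, NNK+SECY over NNK and NNK over Untreated. Filled points passed an adjusted p of 0.05, which only Ces1g and Ces1f did, in both diet comparisons shown, and no gene did for NNK.

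Ces1d and Ces1e had smaller positive differences that did not pass. Ces1d encodes triacylglycerol hydrolase (Ces3 on the array, chr8:93166072-93197804). Its log2 ratios were -0.03, -0.06, -0.14 and 0.06 in Untreated, 0.005, -0.08, 0.04 and 0.004 in NNK, 0.23, 0.24, 0.14 and 0.33 in SECY and 0.13, 0.12, 0.43 and 0.22 in NNK+SECY lungs. The selenocystine groups did not overlap the groups without it, and the differences were 0.28 ± 0.07 in SECY over Untreated (adjusted p = 0.105), 0.23 ± 0.07 in NNK+SECY over NNK (adjusted p = 0.115) and 0.27 ± 0.07 in NNK+SECY over Untreated (adjusted p = 0.0540). Ces1d was highest in SECY 4 and NNK+SECY 3, the lungs highest in Alb. Without the 5 liver-high arrays the differences were 0.22 ± 0.06, 0.20 ± 0.07 and 0.19 ± 0.07 in the same order, none of them called. Ces1d passed in 1 of 21, 1 of 21 and 2 of 21 alternatives of these comparisons, with adjusted p from 0.0229 to 0.636.

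Ces1e encodes egasyn, the esterase that holds beta-glucuronidase in the endoplasmic reticulum (Es22 on the array, chr8:93201218-93229631). Its log2 ratios were -0.05, 0.04, -0.01 and 0.05 in Untreated, 0.05, -0.04, 0.17 and 0.19 in NNK, 0.19, 0.22, 0.38 and 0.44 in SECY and 0.12, 0.18, 0.53 and 0.19 in NNK+SECY lungs. The highest lungs of both selenocystine groups, SECY 4 and NNK+SECY 3, were also those highest in Alb, at 2.47 and 2.59. The difference was 0.30 ± 0.08 in SECY over Untreated (adjusted p = 0.172, no overlap), 0.16 ± 0.08 in NNK+SECY over NNK (adjusted p = 0.561) and 0.25 ± 0.08 in NNK+SECY over Untreated (adjusted p = 0.241). Without the 5 liver-high arrays it was 0.25 ± 0.08, 0.09 ± 0.08 and 0.14 ± 0.08, so that both NNK+SECY differences shrank by more than 1.5 times.

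Ces1h was close to background. It was well above background in Cy5 on 1 of 4 Untreated, 0 of 4 NNK, 4 of 4 SECY and 4 of 4 NNK+SECY arrays. Its log2 ratios ranged from -0.11 to 0.19 in Untreated, -0.13 to 0.07 in NNK, 0.18 to 0.31 in SECY and 0.16 to 0.28 in NNK+SECY lungs. Its difference was 0.22 ± 0.06 in SECY over Untreated (adjusted p = 0.197) and 0.24 ± 0.06 in NNK+SECY over NNK (adjusted p = 0.0777). The latter passed under 4 alternatives, with the lowest adjusted p, 0.0162, from Cy5 alone. Since no NNK array was above background, the NNK+SECY level in Cy5 (mean signal 74.2) can only be called at least 1.14-fold that of NNK (measured mean 64.5). The share of all spots above background was also higher on slides 5 to 8 (75.0% to 79.3%) than on slides 1 to 4 (66.3% to 72.6%), and its part in this result was not tested.

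Groups whose 4 arrays did not overlap were found upward for 4 of the 12 genes in each diet comparison. They were Ces1d, Ces1e, Ces1f and Ces1g in SECY over Untreated and in NNK+SECY over Untreated, and Ces1d, Ces1f, Ces1g and Ces1h in NNK+SECY over NNK. Among all genes the corresponding shares were 1.74%, 3.21% and 3.3%. Ces1h passed the filter only through the selenocystine groups, where it was high, so its non-overlap cannot count as support. Downward, the family had only Ces2b in SECY over Untreated (2.22% of all genes) and no member in NNK+SECY over NNK (5.18%) or NNK+SECY over Untreated (3.61%). The 5 genes found upward in any of these comparisons, Ces1h among them, are neighbours in the Ces1 cluster, from chr8:93166072 to chr8:93379777.

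Ces1c, the plasma esterase that the liver secretes (Es1 on the array, chr8:93099015-93131283), had a pattern set by single lungs rather than by group. Its log2 ratios were -0.86, -0.76, 1.14 and -0.53 in Untreated and -0.48, -0.57, 0.61 and -0.42 in NNK lungs. They were -0.60, -0.61, -0.10 and 2.68 in SECY and -0.49, 1.21, 3.20 and -0.63 in NNK+SECY lungs. The 5 lungs above the pool, Untreated 3, NNK 3, SECY 4, NNK+SECY 2 and NNK+SECY 3, were the same 5 in which Alb was above it. Alb was at 1.19, 0.60, 2.47, 1.53 and 2.59 there and between -1.98 and -0.45 in the other 11. The genes most like Ces1c over the 16 arrays were liver transcripts as well, namely Apoh (r = 0.996), Fgb (r = 0.995) and Apoa2 (r = 0.993).

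Of 10 liver markers 5 were tested (Alb, Apoa2, Fgb, Ahsg and Tat). In limma 0 of the 5 were called in any comparison, and 0 had an unadjusted p under 0.05. Their summed Cy5 signal ranged from 513 to 2823 in Untreated, 642 to 1972 in NNK, 588 to 14521 in SECY and 647 to 61860 in NNK+SECY lungs. Ces1c differed by 0.59 ± 0.80 in SECY over Untreated (adjusted p = 0.927) and 1.04 ± 0.80 in NNK+SECY over NNK (adjusted p = 0.747). Without the 5 arrays these became 0.28 ± 0.13 and -0.07 ± 0.15, the latter of opposite sign.

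**Figure D4:**
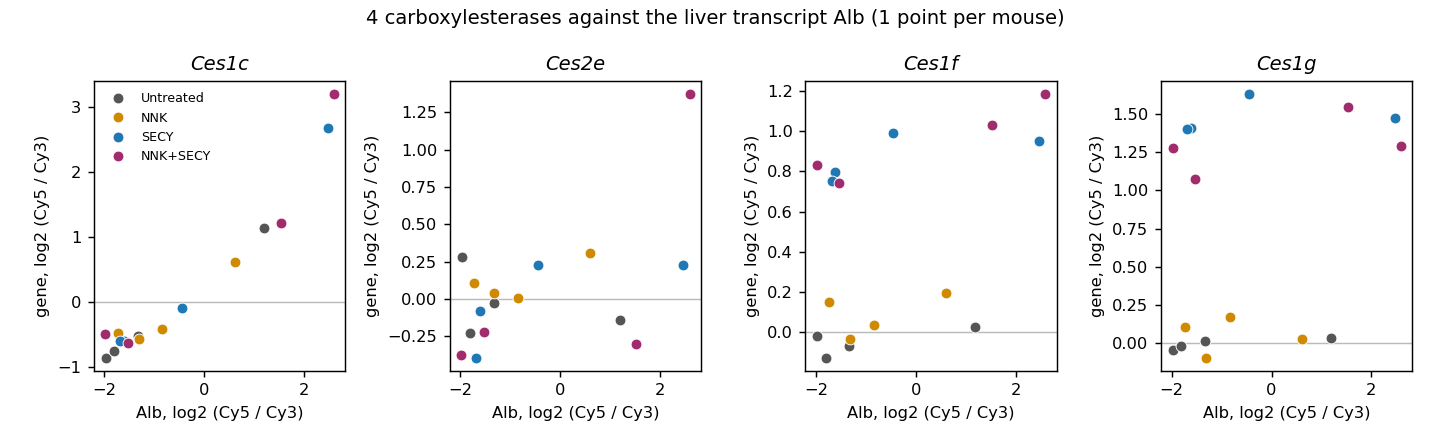
Log2 ratio of Ces1c, Ces2e, Ces1f and Ces1g against that of the liver transcript Alb, 1 point per mouse and colour by group. Ces1c rises along Alb through all 4 groups, Ces2e is high in NNK+SECY 3 only, and Ces1g separates by diet at both low and high Alb.

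Over the 16 arrays, which share the pool and the diet contrast, the correlation with Alb was 0.97 for Ces1c, 0.62 for Ces1e, 0.54 for Ces2e, 0.44 for Ces1f, 0.40 for Ces1d, 0.40 for Ces2g and 0.31 for Ces1g. For Ces1g the 4 SECY lungs lay within 1.40 and 1.63 whether Alb was below the pool (SECY 1 to 3) or above it (SECY 4, at 1.47). Among NNK+SECY lungs, those high in Alb had Ces1g at 1.55 and 1.29 and the others 1.28 and 1.07. Ces1f was at 1.03 and 1.18 in the former and 0.83 and 0.74 in the latter.

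No Ces2 gene was called in any comparison. Ces2e, an intestinal and hepatic esterase that can hydrolyse pyrethroids (Ces5 on the array, chr8:104926260-104934672), varied between mice. Untreated lungs had log2 ratios of 0.28, -0.23, -0.14 and -0.03, against 0.10, 0.04, 0.31 and 0.005 in NNK, -0.08, -0.39, 0.23 and 0.22 in SECY and -0.37, -0.30, 1.37 and -0.22 in NNK+SECY lungs. NNK+SECY 3 stood alone, with a Cy5 signal of 386 against 105 to 120 in the rest of its group. That lung also had the highest Alb, but NNK+SECY 2 and SECY 4, with Alb at 1.53 and 2.47, had Ces2e at -0.30 and 0.22. The difference was 0.02 ± 0.28 in SECY over Untreated (adjusted p = 0.993) and 0.0036 ± 0.28 in NNK+SECY over NNK (adjusted p = 0.999). The latter had no clear direction, as its SE was far larger than the estimate. Without NNK+SECY 3 it was -0.41 ± 0.14 (adjusted p = 0.277), which was not called either. The further Ces2e probe was too dim to be tested.

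Ces2g (2210023G05Rik on the array, chr8:104961596-104969537) lay near the pool in all groups. Its log2 ratios were -0.05, -0.16, -0.02 and 0.05 in Untreated, -0.02, -0.16, 0.21 and -0.08 in NNK, -0.11, -0.23, 0.12 and -0.09 in SECY and -0.23, -0.27, 0.26 and -0.12 in NNK+SECY lungs. All 4 groups overlapped, and its highest lung, NNK+SECY 3, was that of Ces2e. The difference was -0.03 ± 0.11 in SECY over Untreated (adjusted p = 0.974) and -0.08 ± 0.11 in NNK+SECY over NNK (adjusted p = 0.876).

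Ces2b (BC015286 on the array, chr8:104828494-104840093) had the lowest estimate of the family in the diet comparisons and in NNK over Untreated. Untreated lungs were at 0.06, -0.09, -0.06 and 0.04 (log2 ratio), with -0.10, -0.37, -0.17 and -0.21 in NNK, -0.26, -0.43, -0.12 and -0.14 in SECY and -0.29, -0.32, -0.06 and -0.54 in NNK+SECY lungs. All NNK and SECY lungs lay below the Untreated ones, while 1 NNK+SECY lung overlapped them. It differed by -0.23 ± 0.09 in SECY over Untreated (adjusted p = 0.473) and -0.20 ± 0.09 in NNK over Untreated (adjusted p = 0.968), which share the Untreated arrays, and by -0.29 ± 0.09 in NNK+SECY over Untreated (adjusted p = 0.189), so it was not called. A non-overlap downward was found in 2.22% and 1.36% of all genes in these comparisons. A further, dimmer probe of Ces2b gave -0.05 in SECY over Untreated, and its values correlated with those of the brighter one at r = 0.15 over 16 arrays.

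Ces2a, Ces2c, an acylcarnitine hydrolase, and Ces2f had estimates between -0.11 and 0.04 in SECY over Untreated and between -0.03 and 0.03 in NNK+SECY over NNK. Ces2a and Ces2f were not well above background on any NNK array. All of their log2 ratios over the 16 arrays lay between -0.27 and 0.27. For Ces2c and Ces2f a further probe correlated with the one used at r = 0.20 and r = 0.05, and for Ces1c at r = 0.93. A probe named only LOC546097 and described as similar to a carboxylesterase has no current symbol in the gene table. LOC546097 was not counted among the 12. Its log2 ratios were -0.13 to 0.0035 in Untreated, 0.09 to 0.13 in NNK, -0.10 to 0.03 in SECY and -0.03 to 0.13 in NNK+SECY lungs. The NNK arrays lay above all Untreated ones, with a difference of 0.15 ± 0.05 that was not called (adjusted p = 0.518).

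The NNK comparisons asked whether the injection changed these transcripts, with or without the diet. None of the 12 genes was called in NNK over Untreated (0.32% of all genes called), in NNK+SECY over SECY (0.00942%) or in the interaction, the diet difference with NNK minus that without (0.00471%). Ces2b was the 1 member below all Untreated arrays in NNK (1.36% of all genes), and no member lay above them (2.44%). The median of the 12 was 0.04 in NNK over Untreated, against 0.0048 for all genes, and their estimates ranged from -0.20 to 0.14. At an unadjusted p under 0.05, 1071 of all genes differed in NNK over Untreated, and of the 12 Ces2b did. Ces1g differed by 0.06 ± 0.08 and Ces1f by 0.13 ± 0.09 there (adjusted p = 1.00 for both). Within the 4 slides the Ces1g difference was 0.15, -0.07, -0.0054 and 0.16, and the Ces1f difference was 0.17, 0.09, 0.17 and 0.10. Below 0 on all 4 slides were Ces2b (-0.16, -0.29, -0.10 and -0.25), Ces2c (-0.09, -0.20, -0.06 and -0.04) and the dim Ces2f (-0.07, -0.06, -0.08 and -0.06), none of them called. The share of all genes below 0 on all 4 slides was not counted, so this is a description only. The further probes of Ces2b, Ces2c and Ces2f gave smaller differences of -0.11, -0.01 and -0.02 in NNK over Untreated.

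In NNK+SECY over SECY, Ces1g differed by -0.18 ± 0.08 (adjusted p = 0.807), with within-slide differences of -0.13, 0.15, -0.34 and -0.40. Ces1f differed by 0.08 ± 0.09 (adjusted p = 0.921), with 0.03, 0.28, 0.19 and -0.21 within slides. Without the 5 liver-high arrays the difference was -0.30 ± 0.10 for Ces1g and -0.06 ± 0.09 for Ces1f (limma, adjusted p = 0.998 for both). The interaction was -0.24 ± 0.12 for Ces1g and -0.06 ± 0.12 for Ces1f (adjusted p = 1.00 for both), so a different diet response with and without NNK was not shown. Without the 5 liver-high arrays it was -0.38 ± 0.13 for Ces1g and -0.18 ± 0.12 for Ces1f, and neither was called. At an unadjusted p under 0.05, 1304 of all genes differed in NNK+SECY over SECY, with Ces1g and Ces2f among them, and 978 in the interaction, with no member among them. Ces2f was lower in all 4 NNK+SECY lungs (-0.17 to -0.06) than in all 4 SECY lungs (-0.03 to 0.03), a difference of -0.11 ± 0.04 (adjusted p = 0.791) on a dim probe. Within slides 5 to 8 that difference was -0.20, -0.12, -0.10 and -0.03. Such a downward non-overlap was found in 1.38% of all genes. The further Ces2f probe went the other way, with mean log2 ratios of 0.02 in SECY and 0.07 in NNK+SECY lungs.

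The genes most like each member over the 16 arrays were named by correlation of log2 ratios. For Ces1g they were Ces1f (r = 0.966), the glutathione S-transferases Gstm1 (r = 0.963) and Gstp1 (r = 0.960). For Ces1f they were Ces1g, Gsta3 (r = 0.959) and Gstm1 (r = 0.944). Ces1d was most like Gsta3 (r = 0.896), Acsm1 (r = 0.892) and Tmem117 (r = 0.880). Ces1e was most like Ces1d (r = 0.867), followed by Tm4sf4 (r = 0.844) and Fetub (r = 0.840). Ces2e was most like Qdpr (r = 0.969), which recycles tetrahydrobiopterin, and Ces2g most like the clone gene 2410017I17Rik (r = 0.844). These arrays share the pool, the slides and the group means, so the values are descriptions.

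The wider pathways were read from lists of genes. Of 28 NRF2 target enzymes, 16 rose and 0 fell in SECY over Untreated (median 0.46), and 20 rose and 0 fell in NNK+SECY over NNK (median 0.49). They included Gsta3, at 1.02 ± 0.08 in both comparisons, Gstp1 at 0.86 ± 0.08 and 0.93 ± 0.08, and Nqo1, a quinone reductase, at 1.43 ± 0.13 and 1.38 ± 0.13. Srxn1, which repairs oxidised peroxiredoxins, was at 1.34 ± 0.13 in the former, and Gstm1 at 1.00 ± 0.09 in the latter. In NNK over Untreated 0 of the 28 were called by limma (median 0.0054), with 1 at an unadjusted p under 0.05. Of 14 measured PXR and CAR targets, limma called 0 in each diet comparison (median 0.04 in all 3), and 0 had an unadjusted p under 0.05.

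Of 28 measured other esterases and lipid hydrolases, 1 rose in SECY over Untreated and 1 rose and 1 fell in NNK+SECY over NNK. Ephx1, the microsomal epoxide hydrolase, which is also on the NRF2 list, rose by 0.52 ± 0.08 in the first (adjusted p = 0.00786). Esd, which hydrolyses S-formylglutathione, rose by 0.43 ± 0.10 in the second (adjusted p = 0.0327), and Lipc, hepatic lipase, fell by 0.99 ± 0.16 (adjusted p = 0.00216). The list's medians were -0.03 and 0.05. Of 9 other carboxylesterases measured, which include the 6 members not listed by symbol, limma called 0. In SECY over Untreated 2 of the 9 (Ces2b and the dim Ces1h) had an unadjusted p under 0.05, against 8.11% of all genes, and in NNK+SECY over NNK 1 (Ces1h), against 9.9%.

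Markers of lung cell types were read beside the Ces1 rises. Of 8 club cell markers only Aldh1a1, a retinal dehydrogenase, was called, at 0.73 ± 0.09 in SECY over Untreated and 0.58 ± 0.08 in NNK+SECY over NNK, and the list's medians were 0.05 and 0.0044. The summed Cy5 signal of club markers had a lower range in SECY lungs (214283 to 234346) than in Untreated lungs (232268 to 256721), with a narrow overlap. In NNK+SECY lungs (230089 to 239416) it lay within the NNK range (222307 to 242495). Most of that sum comes from Scgb1a1, Scgb3a2, Cyp2f2 and Cbr2, at 50710 to 53148 each in Untreated lungs, so it says little about the other markers. None of 10 alveolar type 2, 8 alveolar type 1, 8 endothelial, 9 alveolar macrophage, 10 adipose, 6 ciliated or 6 cardiac muscle markers measured was called in a diet comparison. At an unadjusted p under 0.05, 9.23% of all genes differed in NNK+SECY over Untreated, where NNK and scan day differ too. There 4 of 10 alveolar type 2 markers (list median -0.10) and 3 of 9 alveolar macrophage markers (median -0.09) differed. So did 4 of 6 ciliated markers (median 0.25, all 6 above 0). In SECY over Untreated and NNK+SECY over NNK 0 of 6 ciliated markers differed (medians 0.07 and 0.05). In NNK over Untreated and NNK+SECY over SECY 2 of 6 did (medians 0.20 and 0.17), against 5.04% and 6.14% of all genes. Alveolar type 2 had 2 and 0 of 10 in SECY over Untreated and NNK+SECY over NNK (medians -0.15 and -0.04). Of 10 fibroblast markers, Mfap4, a matrix protein, was called, at -0.87 ± 0.17 in NNK+SECY over NNK (adjusted p = 0.0126) and -0.73 ± 0.17 in NNK+SECY over Untreated (adjusted p = 0.0473), and 3, 6 and 5 of the 10 had an unadjusted p under 0.05 in the 3 diet comparisons. The list's medians were -0.14, -0.24 and -0.21, and 0, 2 and 3 of the 10 estimates were above 0. The part of cell composition in the Ces1g and Ces1f differences was not tested further.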

How the data were processed

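The members, gene lists and tests were chosen with earlier results of these data known. Spots on 16 Agilent arrays of 2 colours were extracted by the authors with Feature Extraction 8.1.1.1, as the file headers record. The deposited scanner files give linear intensity for spot and background in each dye, and a dye-normalized log10 ratio (red to green). The authors' deposited values are log2 ratios that equal it within 0.005, with column medians at 0. Here the mean signals were corrected by normexp (offset 50) and normalized by loess within arrays, with control and flagged spots at weight 0 (R 4.3.3, limma 3.58.1). Symbols and gene positions come from RefSeq's GRCm38.p6 annotation, matched by accession, symbol or synonym, and the array annotation's own build was not stated. The brightest probe stood for a gene. It was tested if all 4 arrays of some group had Cy5 well above background, which left 21248 of 27703 gene names. A limma model of 4 group means over 16 arrays was fitted, with Benjamini-Hochberg adjustment over all genes and a threshold of 0.05. The median spot had a Cy5 signal of 71.2 to 105 and a Cy3 signal of 67.5 to 93.4. With 4 arrays per group, their number limits the precision. Signal per dye followed Aquantile scaling. Named were all Ces1 and Ces2 genes, genes among the 3 most correlated with each, and at most 4 called members per list by smallest p. Alternatives changed background correction, normalization, filter, probe choice, dye, arrays in the fit, array weights and blocks.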

Additional observations from a re-analysis of the deposited data

Results flagged for a closer look

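Within groups of 4 lungs, 5 values of these genes stood apart from the other 3 by more than the 95% limit of Dixon's test, among 48 groups examined; chance marks about 1 in 20 such groups. Of these, 3 were of Ces1c, at 1.14 in Untreated 3, 0.61 in NNK 3 and 2.68 in SECY 4. Alb was at 1.19, 0.60 and 2.47 on the same arrays. The others were in NNK+SECY 3, the array with the highest Alb, where Ces1e was at 0.53 and Ces2e at 1.37. In that group Ces1c was high on 2 arrays and did not exceed the limit. The part of liver RNA in these values was not tested. No member of the family passed the test of the interaction between NNK and selenocystine.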

How the results depend on the processing

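The count of 2 genes called in each diet comparison was obtained under 20 of 22 alternatives for SECY over Untreated, 18 of 22 for NNK+SECY over NNK and 19 of 22 for NNK+SECY over Untreated. With Cy5 alone the count was 4 in SECY over Untreated and 4 in NNK+SECY over NNK, and 4619 and 1633 of all genes were called in place of 59 and 371. The further calls were Ces1h and Ces2f in the former and Ces1d and Ces1h in the latter. Ces1h and Ces2f passed the filter only through the selenocystine groups. For Ces2f in SECY over Untreated, Cy5 changed by 0.29 and Cy3 by 0.25 (log2). Leaving out 1 array at a time gave counts of 2 to 2, 2 to 2 and 2 to 3 in the 3 diet comparisons, the 3 without NNK+SECY 2 (Ces1d, adjusted p = 0.0480), and 0 for the NNK comparisons and the interaction. Over all alternatives the log2 fold change of Ces1g ran from 1.37 to 1.94 in SECY over Untreated and from 1.11 to 1.55 in NNK+SECY over NNK, and that of Ces1f from 0.88 to 1.23 and from 0.74 to 1.06. No member was called in the NNK comparisons or the interaction under any alternative, and no called value reversed. With the replicate number as a block, Ces1g had an adjusted p of 1.13e-06 and Ces1f of 1.46e-05 in SECY over Untreated, and the number of all genes called was 110. With that block Ces1h also passed in NNK+SECY over NNK (adjusted p = 0.0383). The deviations of same-numbered SECY and Untreated arrays correlated with r from -0.10 to 0.50 and those of NNK+SECY and NNK arrays from -0.11 to 0.29, so the numbers did not pair the samples throughout. With slide as a random block (estimated correlation 0.12) Ces1g had an adjusted p of 9.16e-08. Counts of all genes called depended more on the choices than the family did, at 29 to 4619 for SECY over Untreated (232 without SECY 1), 211 to 1633 for NNK+SECY over NNK, 93 to 3298 for NNK+SECY over Untreated, 0 to 462 for NNK over Untreated (main 68), 0 to 29 for NNK+SECY over SECY (main 2) and 0 to 3 for the interaction (main 1). The alternative without the 5 liver-high arrays was chosen after seeing the data. Ces1h, Ces2a and Ces2f lie near background, which limits what their differences can show.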
